A study of Mus musculus with 17 samples.

Results

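The 10 genes described here, Clec4f, Vsig4, Cd5l, Folr2, Adgre1, Csf1r, Siglec1, Cdh5, Mrc1 and Cd38, encode proteins that are used to recognise Kupffer cells (KCs), most of them receptors or adhesion molecules of the cell surface. They were taken by symbol, and each was found in all 3 tables, as 10 of the 25124 genes listed per table. Bulk RNA-seq of sorted mouse liver KCs was available for 17 samples. TIM4+CD206+ KCs came from 3 tumour-free (untreated) livers and from 3 tumour-bearing livers 2 weeks after tumour cells were injected into the portal vein, and TIM4+CD206hi KCs came from 3 livers of each kind. KCs of 3 Id3f/f mice, which carry loxP-flanked Id3 alleles and no Cre, and of 2 Clec4fCreId3f/f mice, in which a Cre driven by Clec4f deletes Id3 in KCs, were all from untreated animals. The labels give neither the age of the mice nor the tumour line, and only the label of the Clec4fCreId3f/f group names a Cre allele. Nothing in the labels says which samples share an animal, so that p values measure the spread between these samples.

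KCs are the resident macrophages of the liver sinusoids, where they capture bacteria, immune complexes and damaged cells from the blood. Their identity rests on signals of neighbouring sinusoidal endothelial cells, stellate cells and hepatocytes, on CSF1 received through CSF1R, and on nuclear factors that include LXRα and ID3. ID3 is a helix-loop-helix protein without a DNA-binding region, which pairs with E proteins and keeps them from E-box sequences. Clec4f, a C-type lectin that binds glycans, is the most KC-restricted of the genes in mice. Vsig4, the complement receptor CRIg, and Cd5l, a secreted protein also called AIM, serve in the uptake of opsonised particles and in lipid handling. Mrc1 encodes the mannose receptor CD206 and Cdh5 the adhesion molecule VE-cadherin, and both are also made by sinusoidal endothelial cells.

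Values are on the log2 scale that the authors deposited, a regularized scale made separately for each of the 3 tables, so that levels are compared within a table only and the regularization shrinks the differences of weakly read genes. In bulk samples, fewer cells of a type and less RNA per cell cannot be told apart. Some markers were part of the sort, since the gates used F4/80, the product of Adgre1, TIM4, that of Timd4, and CD206, that of Mrc1. Some libraries stood apart before any comparison was made. Over genes with a mean log2 value of at least 14, the second tumour-free TIM4+CD206+ library (replicate 2) differed from the other 2 by a median of 0.499 and 0.402, where the other pair differed by 0.18. Among tumour-free TIM4+CD206hi KCs, replicate 3 differed from the others by 0.449 and 0.548 and these from each other by 0.222. The tumour-bearing pairs differed by 0.0796 to 0.148 and the pairs of the Id3 table by 0.0423 to 0.148.

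Promoter windows run from 250 bases before to 50 bases after a transcription start in RefSeq (GRCm38.p6). Only those of 6 of the 10 genes were examined. Csf1r and Adgre1, which also differed with Id3 deletion, were not among the 6, so nothing is said on their windows. The windows of Clec4f (chr6:83656067-83656366, minus strand), Cd5l (chr3:87357631-87357930, plus strand) and Folr2 (chr7:101857141-101857440 and chr7:101845282-101845581, minus strand, 1 window for each of 2 starts) are shown because these genes differed with Id3 deletion, and capitals mark the E-box CANNTG, which reads the same on both strands.
Clec4f: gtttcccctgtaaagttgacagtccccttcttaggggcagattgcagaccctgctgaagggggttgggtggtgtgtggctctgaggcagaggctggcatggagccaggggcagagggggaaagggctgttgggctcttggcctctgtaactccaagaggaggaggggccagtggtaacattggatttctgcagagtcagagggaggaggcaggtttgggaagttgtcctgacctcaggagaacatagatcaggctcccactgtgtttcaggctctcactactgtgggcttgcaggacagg
Cd5l: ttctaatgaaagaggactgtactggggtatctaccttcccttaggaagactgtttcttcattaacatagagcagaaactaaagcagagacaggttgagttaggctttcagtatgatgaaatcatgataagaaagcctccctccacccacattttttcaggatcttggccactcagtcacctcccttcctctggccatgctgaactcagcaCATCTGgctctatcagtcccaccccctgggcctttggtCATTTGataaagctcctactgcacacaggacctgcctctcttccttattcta
Folr2, first start: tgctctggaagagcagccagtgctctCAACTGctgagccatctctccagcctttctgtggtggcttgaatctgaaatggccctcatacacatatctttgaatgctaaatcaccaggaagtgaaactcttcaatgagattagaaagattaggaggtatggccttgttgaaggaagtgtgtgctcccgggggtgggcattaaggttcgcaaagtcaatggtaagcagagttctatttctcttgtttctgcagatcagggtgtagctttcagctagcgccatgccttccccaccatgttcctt
Folr2, second start: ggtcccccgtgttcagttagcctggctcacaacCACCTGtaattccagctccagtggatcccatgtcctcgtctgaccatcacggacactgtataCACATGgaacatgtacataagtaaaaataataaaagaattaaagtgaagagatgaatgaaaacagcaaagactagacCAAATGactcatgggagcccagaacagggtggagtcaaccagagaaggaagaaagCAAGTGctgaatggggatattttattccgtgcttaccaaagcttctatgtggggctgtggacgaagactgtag
The Clec4f window held no E-box. That of Cd5l held 2, at -40 and -2 from the start, and those of Folr2 held 1 (at -224) and 4 (at -217, -155, -78 and -23). Of 32851 windows of this length over all genes, 72.3% held at least 1 E-box and 6.49% at least 4, so the presence of an E-box sets none of these genes apart. The PU.1 core GAGGAA, searched on both strands, can share at most 1 base with an E-box and was found in 28.3% of windows and once among the 4 shown, in that of Cd5l. A match describes the letters of a window only.

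The level of the 10 genes was first compared within each group, per kilobase of merged exons (GENCODE M21, GRCm38), as a description without a test. In tumour-free TIM4+CD206+ KCs, Clec4f was highest at 17.98 ± 0.33 (SD, n = 3) and Cd5l followed at 17.87 ± 0.26. The next were Vsig4 at 15.85 ± 0.25, Folr2 at 15.85 ± 0.45 and Csf1r at 15.77 ± 0.26. These 5 genes thus formed a pair and a trio, within which neighbours differed by less than their SD. Adgre1 stood alone below them at 14.42 ± 0.23. Cd38 (12.34 ± 0.22) and Siglec1 (12.03 ± 0.35) came next and did not differ beyond their spread, and neither did Mrc1 (10.13 ± 0.39) and Cdh5 (10.11 ± 0.08) at the lower end. Cdh5 was the lowest of the 10 in every group, at 10.29 ± 0.57 in tumour-free TIM4+CD206hi KCs and 8.91 ± 0.14 in Id3f/f KCs. Cd5l passed Clec4f to the first place in both tumour-bearing groups and in the Id3 table, and Clec4f stood below both Cd5l and Vsig4 in Clec4fCreId3f/f KCs, at 14.82 ± 0.02 (n = 2) against 16.72 ± 0.02 for Cd5l and 15.75 ± 0.04 for Vsig4.

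The sorted subsets differed in Mrc1 as their gates would have it. Mrc1 less the mean of Adgre1 and Csf1r in the same library lay between -4.60 and -3.56 in the 6 TIM4+CD206+ samples and between -1.27 and -0.60 in the 6 TIM4+CD206hi samples. In the Id3 table, whose KCs were not split by CD206, it lay between -2.80 and -1.97. The TIM4+CD206hi samples also held more endothelial transcripts, as the 22 markers of these cells summed to 0.662% to 1.63% of all linear values, against 0.0468% to 0.104% in TIM4+CD206+ samples. The part of such transcripts in Mrc1 and Cdh5 was not tested. KC markers were present in every sample: Timd4, for example, was at 13.76 or higher in all 17.

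**Figure D1:**
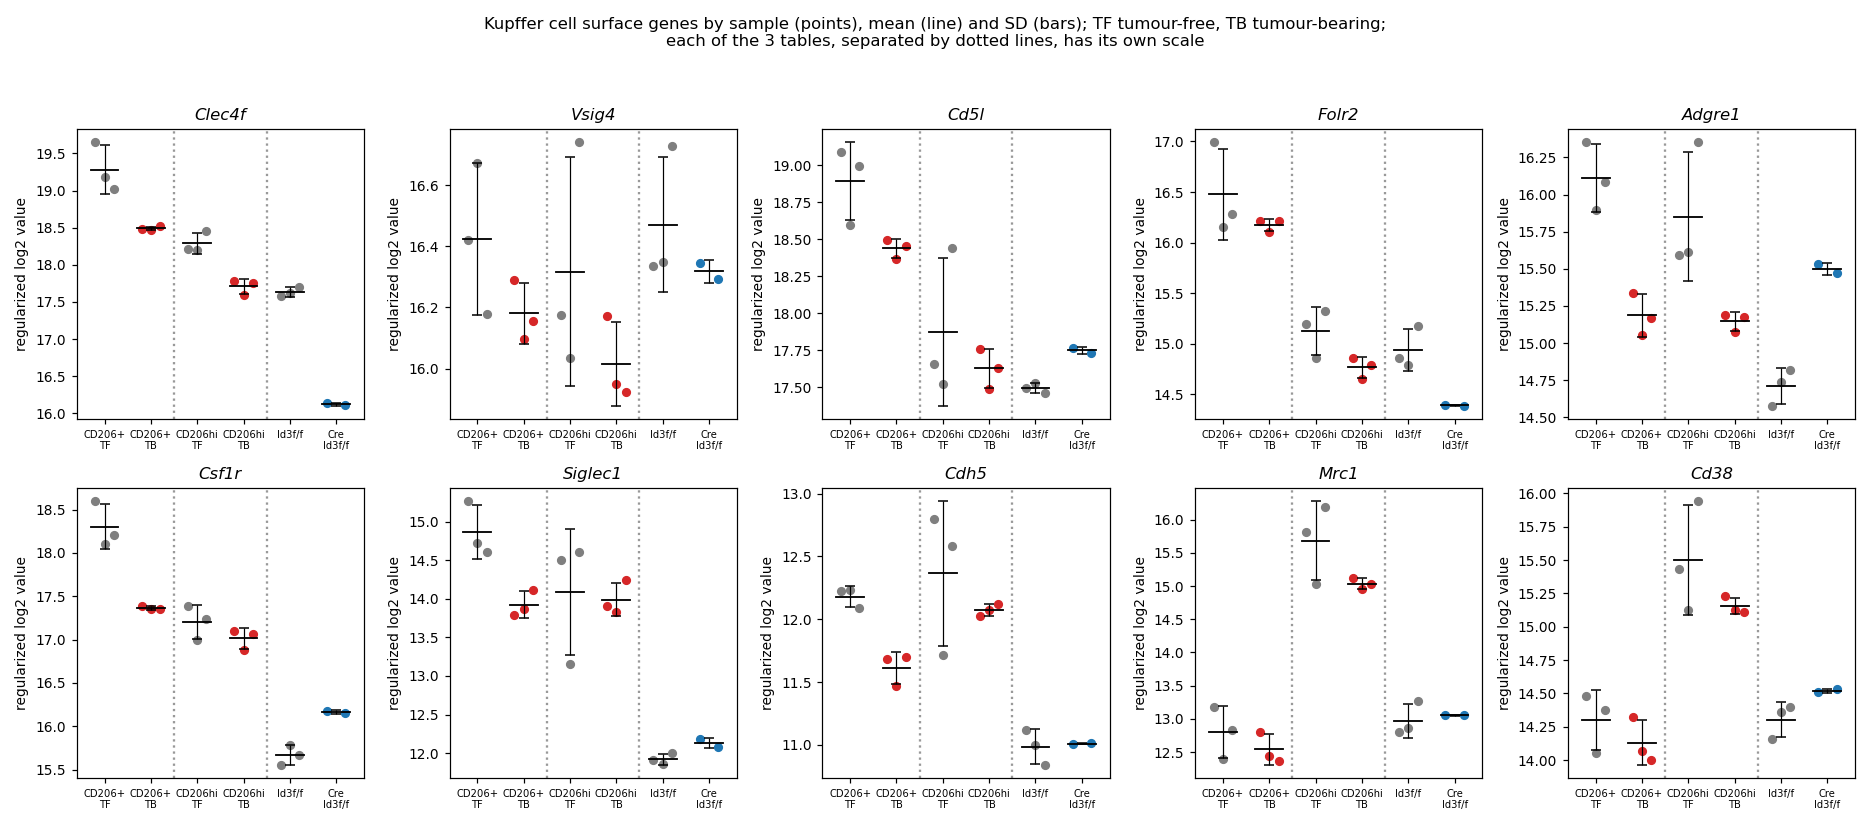
Regularized log2 value (y axis, own range in each panel) of the 10 genes in each of 17 samples (points), with the mean (line) and SD (bars) of each group; TF is tumour-free, TB tumour-bearing, and dotted lines part the 3 tables, which have their own scales. All 3 tumour-bearing TIM4+CD206+ samples lie below the 3 tumour-free ones for Adgre1, Csf1r and Siglec1, and both Clec4fCreId3f/f samples lie far below Id3f/f samples for Clec4f.

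In TIM4+CD206+ KCs of tumour-bearing livers, 3 of the 10 genes fell: Csf1r, Adgre1 and Siglec1, each to between 0.522 and 0.527 times the tumour-free level. All 10 differences were below 0, with a median of -0.51 on the log2 scale, against a median of 0.02 over all genes tested. Of those 13233 genes, 3.54% were called at an adjusted p under 0.05 (limma, Benjamini-Hochberg over all genes), 2.55% being higher and 0.998% lower, and 47.9% had a difference below 0. Every tumour-bearing sample lay below every tumour-free one for 6 of the 10 genes, and for 10.5% of all genes.

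Csf1r, on chromosome 18, encodes the receptor through which CSF1 and IL-34 keep macrophages alive. It was at 18.60, 18.10 and 18.21 in tumour-free and at 17.39, 17.35 and 17.35 in tumour-bearing samples. The tumour-bearing samples lay close together and all below the tumour-free ones. Csf1r fell by 0.94 (SE 0.19, adjusted p = 0.0344). Adgre1 (GRCm38, chromosome 17, 57358691 to 57483527), the adhesion receptor F4/80, was at 16.35, 15.89 and 16.09 without and at 15.34, 15.05 and 15.17 with tumour. The groups were again apart, by more than the range of either. Adgre1 fell by 0.93 (SE 0.18, adjusted p = 0.028). Siglec1 (chromosome 2, 131069220 to 131086765), the sialic acid receptor CD169 that holds blood-borne particles, was at 15.26, 14.73 and 14.60 without and at 13.78, 13.87 and 14.11 with tumour. It fell by 0.94 (SE 0.21, adjusted p = 0.0481), with no overlap of the groups.

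These calls depended on the samples and on the settings. None of the 10 genes was called when any 1 library other than tumour-free replicate 2 was left out, with adjusted p of 0.0779 to 0.17 for Csf1r, 0.0795 to 0.139 for Adgre1 and 0.0749 to 0.203 for Siglec1. Without tumour-free replicate 2, the library that stood apart, 5 of the 10 were called lower, as Clec4f (fell by 0.85, adjusted p = 0.0251) and Cd5l (fell by 0.60, adjusted p = 0.00965) joined the other 3. The genes called lower among all rose at the same time from 132 to 601, so that the larger count of the 10 went with a general rise in calls. With median centring none of the 3 was called (adjusted p of 0.0914 for Csf1r, 0.0636 for Adgre1 and 0.0661 for Siglec1), with no trend of the prior variance only Csf1r was, and without a filter on low values Siglec1 was lost (adjusted p = 0.0736). The centring did not shrink the falls. Tumour-bearing libraries had the higher median over the genes tested by 0.07, so that it made each difference lower by this amount. Of 13 alternatives in all, Csf1r was past the threshold in 7, Adgre1 in 6 and Siglec1 in 5, each with a difference below 0 in all 13. Samples with the same number deviated together in this subset. A fit blocked on that number called the same 3 genes (adjusted p of 0.00938 for Adgre1, 0.0177 for Siglec1 and 0.032 for Csf1r), while the count over all genes rose from 469 to 1026.

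Clec4f (chromosome 6, 83644542 to 83656187) was at 19.65, 19.18 and 19.02 without and at 18.48, 18.47 and 18.52 with tumour. No tumour-bearing sample reached the lowest tumour-free one, and the difference of -0.79 (SE 0.21, adjusted p = 0.0925) missed the threshold. Cdh5 (chromosome 8, 104101625 to 104144511) was at 12.22, 12.23 and 12.09 against 11.68, 11.47 and 11.70, a difference of -0.57 (SE 0.15, adjusted p = 0.0906). Its groups were also apart. Cd5l (chromosome 3, 87357881 to 87371073) was at 19.09, 18.59 and 18.99 against 18.49, 18.37 and 18.45, a difference of -0.45 (SE 0.20, adjusted p = 0.289), and its groups were narrowly apart. The groups overlapped for Folr2, the folate receptor β (chromosome 7, 101839988 to 101857194), with a difference of -0.30, for Mrc1 (chromosome 2, 14229392 to 14332057) with -0.26, for Vsig4 (chromosome X, 96247203 to 96293438) with -0.24, and for Cd38, an NAD-consuming ectoenzyme (chromosome 5, 43868553 to 43912375), with -0.17 (adjusted p of 0.558 to 0.701). The 95% intervals of these 4 differences reached from -0.83 for Folr2 to 0.26 for Mrc1.

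**Figure D2:**
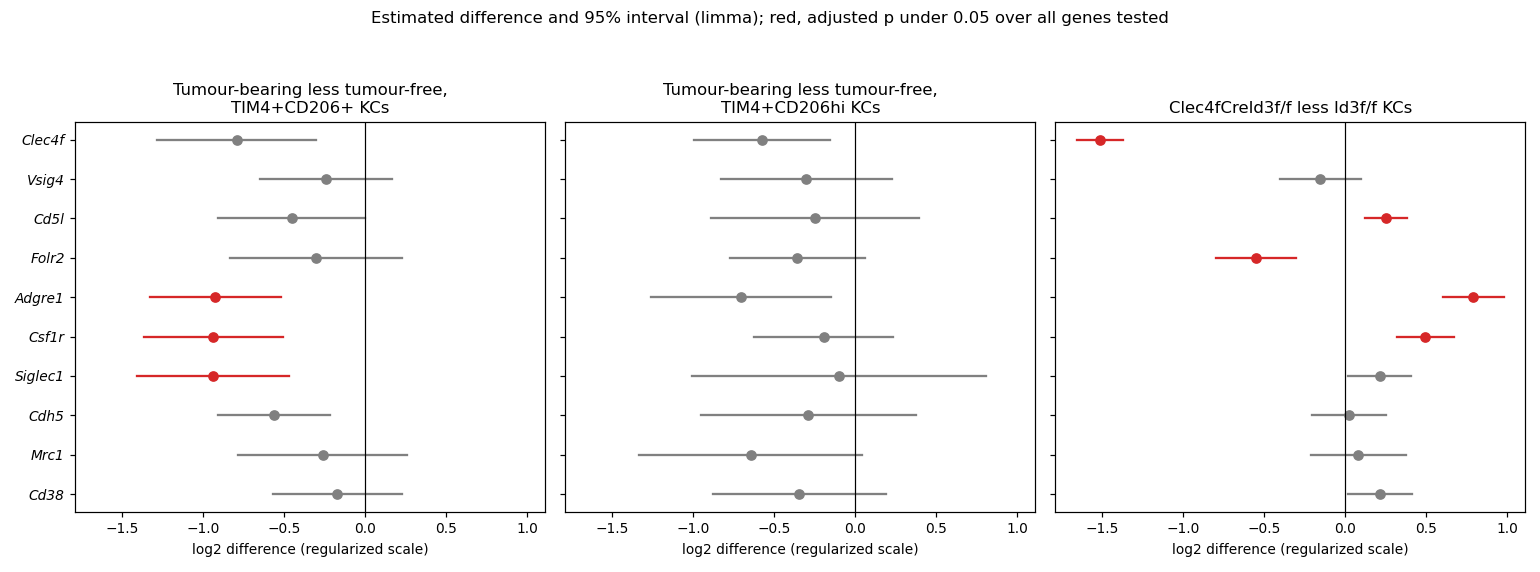
Estimated log2 difference (point) with its 95% interval (line) for the 10 genes in the 3 comparisons (panels), from limma; red marks an adjusted p under 0.05 over all genes tested. All points lie below 0 in both tumour comparisons (with quantile normalization those of Cd5l and Siglec1 in TIM4+CD206hi KCs would not), with 3 red in TIM4+CD206+ KCs and 0 in TIM4+CD206hi KCs, and lie on both sides of 0 in the Id3 comparison.

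The genes did not fall evenly. Against the mean of the other 9 genes in the same library, Csf1r, Siglec1 and Adgre1 were lower in tumour-bearing samples by 0.42, 0.42 and 0.41, Clec4f by 0.26, and the groups did not overlap for these 4. By the same measure Cd38 and Mrc1 were higher by 0.43 and 0.33, again without overlap. For Mrc1 this was nearly a tie, with a highest tumour-free value of -3.373 and a lowest tumour-bearing value of -3.369. The gap was also narrow for Clec4f and Siglec1, whose lowest tumour-free values were 3.505 and -1.407 and highest tumour-bearing values 3.492 and -1.433. Vsig4 and Folr2 were higher by 0.35 and 0.28 with overlap. These differences within a library do not depend on how libraries were scaled to each other. They are given without a test, and genes of the set enter each other's mean. The share of all genes without overlap was not computed for this measure.

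The companion KC genes, 15 further genes of KC identity, gave 1 call in TIM4+CD206+ KCs. Timd4, the phosphatidylserine receptor TIM4 of the gate, was at 14.87, 14.66 and 14.55 without and at 14.01, 13.76 and 14.06 with tumour. It fell by 0.75 (SE 0.16, adjusted p = 0.0463), with no overlap between the groups. The call was lost without a filter on low values, without a mean-variance trend, with centring on the median or on the pan-macrophage genes, and when any 1 library except tumour-free replicate 2 was left out. The blocked fit called 2 companion genes, Timd4 and C6, and without tumour-free replicate 2 the count was 5, as Id3, Nr1h3 and Il18bp were also called lower and Fabp7 higher. The differences of the 15 genes had a median of -0.26, 13 being below 0. Complement component C6 was lower by 0.63 (adjusted p = 0.0976) and Id3 by 0.47 (adjusted p = 0.116), both without overlap, while the scavenger receptor gene Marco was higher by 0.89 (adjusted p = 0.209). Among 14 pan-macrophage genes limma called 0, with 3 at an unadjusted p under 0.05 (Axl, Itgam and C1qc), and their differences ranged from -0.65 for the efferocytosis receptor gene Axl to 1.07 for the integrin gene Itgam.

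In TIM4+CD206hi KCs, 0 of the 10 genes were called by limma, with 2 (Clec4f and Adgre1) at an unadjusted p under 0.05. Among 14561 genes, 7.23% were called, with 5.21% (758) higher and 2.03% (295) lower, or 664 higher and 518 lower with quantile normalization, and 47.7% had a difference below 0. All 10 differences were below 0 here too, with a median of -0.32 against 0.03 over all genes, but those of Cd5l and Siglec1 changed sign with quantile normalization. For Adgre1, Clec4f and Folr2, 3 of the 10, all tumour-bearing samples lay below all tumour-free ones, as they did for 15.2% of all genes. The tumour-bearing libraries had the higher median over all genes by 0.16, so that centring each library on its median made each of the 10 differences lower by this amount. None of the 10 was called after centring either.

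Adgre1 was at 15.59, 15.61 and 16.35 in tumour-free and at 15.19, 15.07 and 15.18 in tumour-bearing TIM4+CD206hi samples. Tumour-free replicate 3 was far above the rest, and the other 2 tumour-free samples still lay above all with tumour. The difference was -0.71 (SE 0.24, adjusted p = 0.144), and it was -0.46 with an adjusted p of 0.0368 without that replicate. Clec4f was at 18.21, 18.20 and 18.45 against 17.78, 17.60 and 17.76, a difference of -0.58 (SE 0.18, adjusted p = 0.119) without overlap. Mrc1 was at 15.82, 15.03 and 16.19 against 15.11, 14.96 and 15.04. Only the value of tumour-free replicate 2 lay within the tumour-bearing range. The difference of Mrc1 was -0.65 (SE 0.29, adjusted p = 0.264), and without tumour-free replicate 2 it was -0.97 (adjusted p = 0.0107). Leaving out the same library also brought Cdh5 past the threshold, with a difference of -0.61 (adjusted p = 0.0257) in place of -0.29, and it raised the count over all genes from 1053 to 3633.

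Csf1r and Siglec1, which fell in TIM4+CD206+ KCs, differed by -0.19 (adjusted p = 0.556) and -0.10 (adjusted p = 0.895) in TIM4+CD206hi KCs. The 95% interval was -0.63 to 0.24 for Csf1r and -1.01 to 0.81 for Siglec1. Siglec1 varied widely among tumour-free samples, which were at 14.51, 13.15 and 14.60, with the tumour-bearing ones at 13.91, 13.82 and 14.24. Since the tables were scaled separately, the difference between the subsets was not tested. Folr2 differed by -0.36, Cd38 by -0.35, Vsig4 by -0.30 and Cd5l by -0.25 (adjusted p of 0.301 to 0.62). Within a library, Adgre1 and Mrc1 were lower than the mean of the other 9 genes by 0.37 and 0.30 in tumour-bearing samples, without overlap, and the other 8 overlapped. Both gaps were nearly ties. The lowest tumour-free values were -0.319 for Adgre1 and -0.438 for Mrc1, and the highest tumour-bearing values were -0.323 and -0.444. Here too no share over all genes was computed for this measure.

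Of the companion genes in TIM4+CD206hi KCs, limma called 0 of 15, with 3 at an unadjusted p under 0.05. These were Timd4 (-0.64, adjusted p = 0.149), Cd207, which encodes langerin (-0.74, adjusted p = 0.153), and Marco (1.25, adjusted p = 0.163), and none of the 3 overlapped between the groups. Without tumour-free replicate 2 limma called 2 companion genes (Timd4 lower and Slc16a9 higher), and without tumour-free replicate 3 also 2 (Id3 lower and Marco higher). Of the 14 pan-macrophage genes 0 were called, with 2 at an unadjusted p under 0.05, and their median was -0.17.

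Markers of other cells moved with tumour in the same samples. Of 14 epithelial markers, of which 13 passed the filter, 12 were called higher in each subset, and their summed level was 0.00642% to 0.0102% of all linear values in tumour-free and 0.124% to 0.142% in tumour-bearing TIM4+CD206+ samples (0.00771% to 0.0121% and 0.185% to 0.196% in TIM4+CD206hi samples). Of 10 monocyte markers, 5 were called higher in each subset, from a sum of 0.0421% to 0.0946% to one of 0.13% to 0.154% in TIM4+CD206+ samples and from 0.0694% to 0.0972% to 0.135% to 0.15% in TIM4+CD206hi samples. Of 10 neutrophil markers 5 were called higher in each. Hepatocyte markers fell, 8 of 14 in TIM4+CD206+ and 9 of 14 in TIM4+CD206hi KCs. The 10 surface genes themselves summed to 4.24% to 5.44% without and 3.10% to 3.29% with tumour in TIM4+CD206+ samples, and to 2.46% to 3.63% and 2.16% to 2.46% in TIM4+CD206hi samples. These sums cover the listed genes only and do not give the share of RNA that came from a cell type. The part of other cells in the differences was not tested.

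Endothelial markers bear on Cdh5 and Mrc1. In TIM4+CD206+ KCs limma called 0 of the 21 that passed the filter, with 5 at an unadjusted p under 0.05, and the sum was 0.0468% to 0.104% without and 0.0492% to 0.0667% with tumour. Most of these markers were nonetheless lower there. Of the 21 differences, 17 were below 0 and 4 above, with a median of -0.76 against 0.02 over all genes tested. In TIM4+CD206hi KCs 6 of 22 were called lower (Tek, Clec4g, Ehd3, Gpr182, Oit3 and Dnase1l3), and the sum fell from between 1.14% and 1.63% to between 0.662% and 0.829%. The part of these cells in the lower Mrc1 of TIM4+CD206hi KCs was not tested. For the remaining lists, the B cell markers Cd79a and Cd79b were called lower in both subsets, the dendritic cell marker Ly6d in TIM4+CD206+ KCs, and 2 stellate cell markers (Lrat and Dcn) in TIM4+CD206hi KCs. No T or NK cell marker was called in either subset by limma, with 3 and 6 at an unadjusted p under 0.05. Limma also called 0 of 10 stellate cell markers in TIM4+CD206+ KCs (1 at an unadjusted p under 0.05) and 0 of 8 dendritic cell markers in TIM4+CD206hi KCs (0 at an unadjusted p under 0.05).

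**Figure D3:**
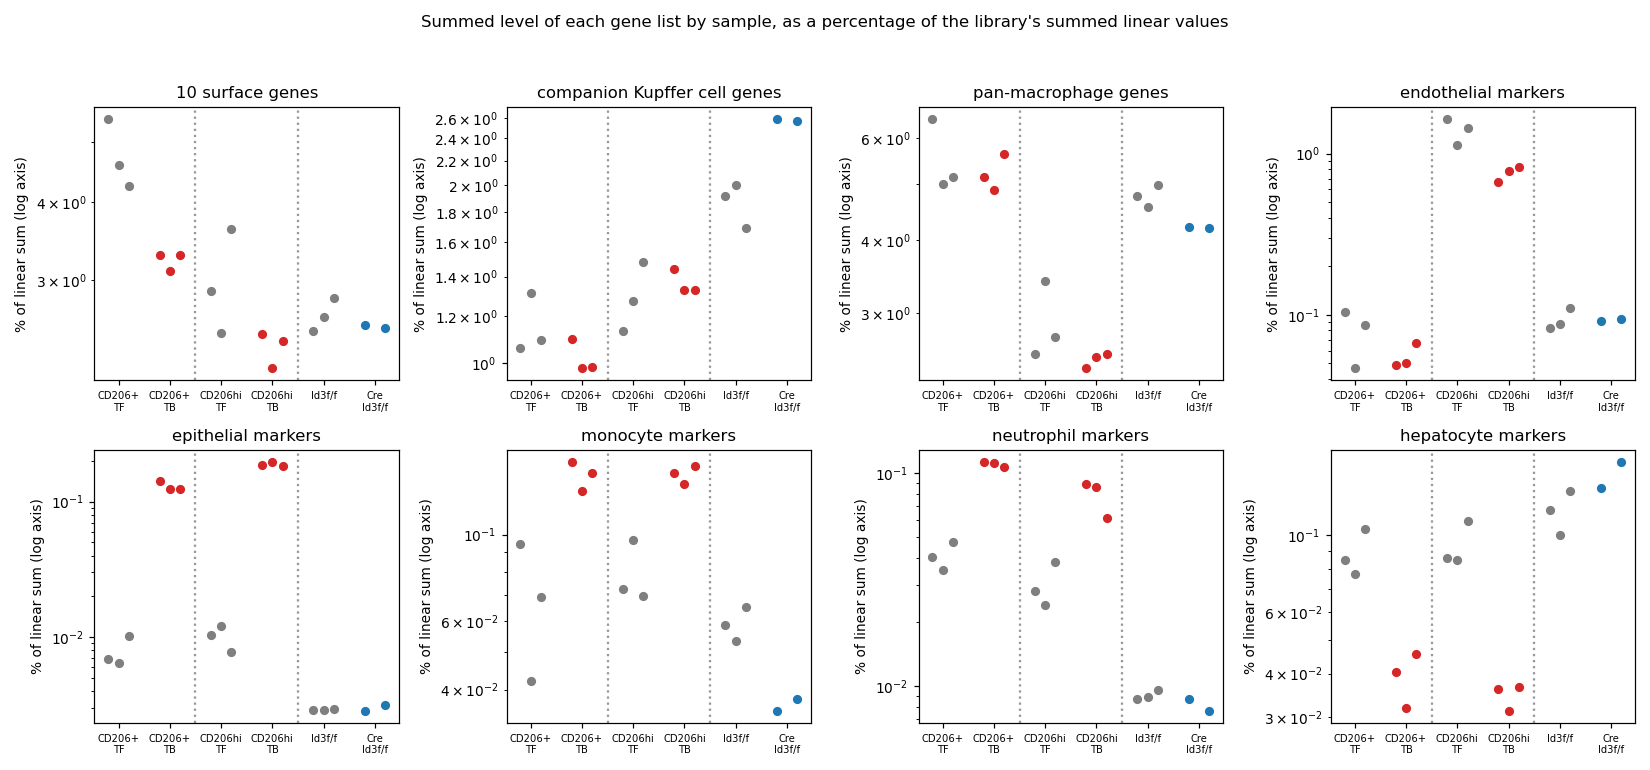
Sum of each gene list in each sample (points), as a percentage of the library's summed linear values on a log axis; grey is tumour-free or Id3f/f, red tumour-bearing and blue Clec4fCreId3f/f, and dotted lines part the 3 tables. The 10 surface genes take 3.10% to 3.29% in tumour-bearing TIM4+CD206+ samples against 4.24% to 5.44% in tumour-free ones, and epithelial markers rise in both subsets with tumour.

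With Id3 deletion, Clec4f fell most and the set split in both directions. In Clec4fCreId3f/f KCs, Clec4f and Folr2 were lower and Adgre1, Csf1r and Cd5l higher than in Id3f/f KCs, at an adjusted p under 0.05. Of 12833 genes tested, 6.44% were called, 3.37% (432) lower and 3.08% (395) higher, or 550 lower and 328 higher with median centring. The groups did not overlap, with Clec4fCreId3f/f samples lower, for 2 of the 10 genes and 21.7% of all genes, and with these samples higher for 5 of the 10 and 20.2% of all. Id3, the targeted gene, was at 12.58, 12.46 and 12.82 in Id3f/f and at 9.83 and 9.82 in Clec4fCreId3f/f samples, a fall by 2.80 (SE 0.11, adjusted p = 1.4e-06).

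Clec4f was at 17.59, 17.62 and 17.71 in Id3f/f and at 16.13 and 16.11 in Clec4fCreId3f/f samples. The gap between the groups was many times the range within either. Clec4f fell by 1.52 (SE 0.06, adjusted p = 1.8e-06), to 0.35 times the Id3f/f level. It was called under each of the 12 alternatives run, with a difference of -1.54 to -1.42. Only Clec4fCreId3f/f mice carry a Cre allele that takes its expression from Clec4f, so the allele and the loss of Id3 cannot be told apart for this gene or any other. Folr2 was at 14.86, 14.79 and 15.18 against 14.39 and 14.39. Both Clec4fCreId3f/f samples lay below every Id3f/f sample, and Folr2 fell by 0.55 (SE 0.11, adjusted p = 0.0225).

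Adgre1 was at 14.58, 14.73 and 14.82 in Id3f/f and at 15.53 and 15.47 in Clec4fCreId3f/f samples. It rose by 0.79 (SE 0.08, adjusted p = 0.00165), a 1.73-fold difference, and the groups were far apart. Csf1r was at 15.55, 15.79 and 15.67 against 16.18 and 16.15. It rose by 0.50 (SE 0.08, adjusted p = 0.0101), again with every Clec4fCreId3f/f sample above every Id3f/f sample. Cd5l was at 17.50, 17.53 and 17.46 against 17.76 and 17.73, a small rise by 0.25 (SE 0.06, adjusted p = 0.0335) that the close values of all 5 samples made measurable. Adgre1 and Csf1r, then, were higher with Id3 deletion and lower with tumour in TIM4+CD206+ KCs, and no sample is shared between these comparisons.

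The remaining 5 genes did not pass the test. Siglec1 was at 11.91, 11.86 and 12.00 in Id3f/f and at 12.18 and 12.09 in Clec4fCreId3f/f samples, a difference of 0.21 (adjusted p = 0.173). Cd38 was at 14.15, 14.36 and 14.40 against 14.51 and 14.53, a difference of 0.22 (adjusted p = 0.172). Both genes had every Clec4fCreId3f/f sample above every Id3f/f sample. The groups overlapped for Vsig4 (-0.15, 95% interval -0.40 to 0.10, above 0 with quantile normalization), Mrc1 (0.08, -0.21 to 0.37) and Cdh5 (0.02, -0.20 to 0.25, below 0 with median centring). Within a library, Clec4f, Folr2 and Vsig4 were lower than the mean of the other 9 genes by 1.67, 0.60 and 0.15, and Adgre1, Csf1r, Cd5l, Cd38 and Siglec1 higher by 0.90, 0.57, 0.30, 0.26 and 0.25, all without overlap. The lower Clec4f enters the mean used for every other gene and so raises their values on this measure. No share over all genes was computed for it.

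**Figure D4:**
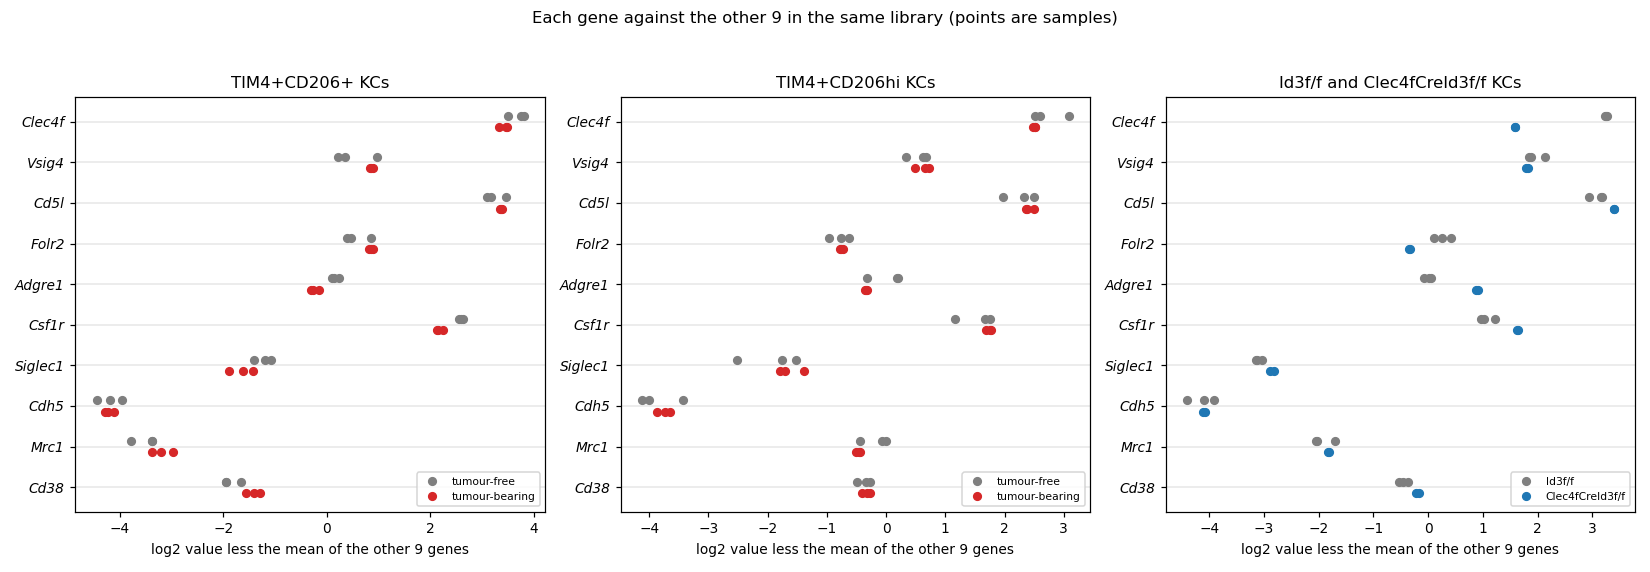
Log2 value of each gene less the mean of the other 9 in the same library (x axis), with a point per sample; grey is tumour-free or Id3f/f, red tumour-bearing and blue Clec4fCreId3f/f. The largest shift is that of Clec4f between Id3f/f and Clec4fCreId3f/f samples, by -1.67, and in TIM4+CD206+ KCs Adgre1, Csf1r and Siglec1 shift to lower and Mrc1 and Cd38 to higher values with tumour.

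The Id3 calls depended on few animals and, for Folr2 and Cd5l, on the settings. When either of the 2 Clec4fCreId3f/f samples was left out, Clec4f alone was called among the 10, and 17 and 19 genes in all. Leaving out Id3f/f replicate 1 left 3 of the 10 (Clec4f, Adgre1 and Csf1r), replicate 2 left 4, and leaving out replicate 3 gave 8, with Cd38, Siglec1 and Mrc1 added, while the count over all genes was 207, 410 and 1850 in place of 827. With no trend of the prior variance, Folr2 (adjusted p = 0.0561) and Cd5l (adjusted p = 0.0575) were not called, and of 12 alternatives Folr2 was past the threshold in 8 and Cd5l in 7. The differences of the 5 called genes kept their sign in all 12. Sex also differed between the groups. Xist was higher in Clec4fCreId3f/f KCs by 3.44 and the Y-linked Ddx3y and Eif2s3y were lower by 2.44 and 1.82 (adjusted p of 5.74e-08, 6.45e-07 and 7.06e-04), so that sex and genotype cannot be told apart in these 5 samples.

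Among the 15 companion genes, 4 were called lower and 2 higher with Id3 deletion. Besides Id3, the lower ones were Fabp7, a fatty acid-binding protein of KCs (by 1.42, adjusted p = 3.04e-04), Id1, the related inhibitor (by 0.72, adjusted p = 0.00844), and Clec1b, the podoplanin receptor CLEC-2 (by 0.32, adjusted p = 0.0469). Cd207, a neighbour of Clec4f on chromosome 6, was higher by 1.68 (adjusted p = 7.06e-04) and Slc40a1, the iron exporter ferroportin, by 0.42 (adjusted p = 0.0164). For these genes too, the Cre allele and the loss of Id3 cannot be told apart. Timd4, the marker of the sort, overlapped between the groups, with a difference of 0.006 (95% interval -0.15 to 0.16). With either Clec4fCreId3f/f sample left out, 3 companion genes were called (Id3, Fabp7 and Cd207), and without Id3f/f replicate 3 there were 10. Of the 14 pan-macrophage genes, the efferocytosis receptor gene Mertk and the factor gene Cebpa were called higher, by 0.54 and 0.45, and Cd68, C1qa, C1qb, C1qc and Tyrobp lower, by 0.31 to 0.56.

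Markers of other cells also moved with genotype, and the shares called are to be read against the 6.44% of all genes. Endothelial markers summed to 0.0828% to 0.11% in Id3f/f and 0.0915% to 0.0936% in Clec4fCreId3f/f samples, with 1 of 22 called higher and 3 lower. The monocyte sum was 0.0533% to 0.0651% against 0.0353% to 0.0378%, lower in both Clec4fCreId3f/f samples without overlap, with Plac8 called lower, and the hepatocyte sum 0.0999% to 0.134% against 0.136% to 0.162%, with 3 of 14 called higher and 1 lower. Of the neutrophil markers Mmp9 was called lower. Limma called 0 epithelial, 0 dendritic cell, 0 B cell, 0 T or NK cell and 0 stellate cell markers (0, 2, 0, 0 and 1 at an unadjusted p under 0.05). Krt20, Cldn4, Elf3, Vcan and Ly6g were listed at 0 in all 5 samples. The part of these transcripts in the differences was not tested.

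Last, the genes whose pattern over the 17 samples was closest to that of Clec4f and of Cdh5 were found by the root mean square difference of values centred on each table's mean, among 12221 genes that passed the filter in all 3 tables. For Clec4f they were Oasl2 (0.221), Ifitm3 (0.265), Rtp4 (0.278), H2-T24 (0.291) and Got1 (0.302), where the median gene was at 0.58. Oasl2, Ifitm3 and Rtp4 are known as interferon-induced genes and H2-T24 is a non-classical MHC class I gene. Oasl2 differed by -1.08 with tumour in TIM4+CD206+ KCs, by -0.81 in TIM4+CD206hi KCs and by -0.97 with Id3 deletion. It was chosen for its likeness to Clec4f over these same samples, so these falls follow from the choice and are no separate result. For Cdh5 they were Dync1h1 (0.0976), Dpy19l3 (0.124), Fryl (0.129), Phactr4 (0.133) and Zw10 (0.134), where the median gene was at 0.381. None of these 5 is on the endothelial list above. Centring each table removed the difference in endothelial sums between the subsets, and the source of Cdh5 transcripts was not tested.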

How the data were processed

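Sorted KCs of 17 samples in 6 groups were profiled from amplified cDNA (SMART-Seq) without molecular identifiers. The submitters' processing notes name STAR 2.7.10a, HTSeq, DESeq2 and the build mm10. The values deposited by the authors are log2 values with the features of a regularized log transformation, made separately in each of the 3 tables, although the columns are named TPM. Read depth is therefore not given by the files, and the count test of the study could not be run. Of 25124 genes, 7370 (TIM4+CD206+), 5764 (TIM4+CD206hi) and 8447 (Id3) were without reads in all samples of the table.

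A gene entered a test if its value reached log2 of 10 in at least 3 samples (2 for Id3f/f against Clec4fCreId3f/f). Each comparison was a two-sided moderated test of limma 3.58.1 (R 4.3.3), whose prior variance followed the mean value, and p values were adjusted by Benjamini-Hochberg over all genes tested. The script was tested on simulated data first. Samples were grouped by their labels. Deviations from the group mean correlated between same-numbered samples with r = 0.35, 0.56 and 0.15 over genes in TIM4+CD206+ KCs. The labels do not say that these samples are paired. With 3 libraries per group the correlations cannot show it, since a deviating library in each group can give such values. The correlations were below 0 in TIM4+CD206hi KCs (r of -0.13 to -0.05) and in the Id3 table (-0.10 and -0.07). The 10 genes and all lists (companion, pan-macrophage and markers of other liver cells) were chosen with earlier results of these data known. Genes were named by membership in these lists, besides sex-linked genes and the 5 nearest profiles of Clec4f and Cdh5. Each setting was changed on its own: the filter (none, or log2 of 50), the replicate block, median centring, quantile normalization, no trend of the prior variance, and each sample left out. Centring on the pan-macrophage genes was added after seeing the data. Summaries used Python 3.11.15 with pandas 2.3.3 and numpy 2.4.6, and plots matplotlib 3.10.9. Some genes of the lists are not reported here by name.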

Additional observations from a re-analysis of the deposited data

How the results depend on the processing

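For the 10 genes, 327 of 380 alternative values kept their direction and their side of the threshold, 34 were no longer past it, 9 were past it only in the alternative, and 10 changed sign, each of these for a gene that was not called. In TIM4+CD206hi KCs, Cd5l was at 0.027 and Siglec1 at 0.048 with quantile normalization, and with single samples left out they ranged from -0.42 to 0.039 and from -0.56 to 0.16. With Id3 deletion, Vsig4 was at 0.039 with quantile normalization, Cdh5 at -0.049 with the replicate block and -0.0040 with median centring, and with single samples left out Cdh5 ranged from -0.049 to 0.091 and Mrc1 from -0.0086 to 0.23. Among TIM4+CD206+ KCs, median centring left 0 of the 10 genes called and the fit with no trend 1, and companion genes numbered 0 with no filter, either centring or no trend and 2 with the replicate block, which called 1026 genes in all. The stricter filter left 600 genes in TIM4+CD206hi KCs. For Id3 deletion, 477 genes were called with no filter and 2089 with the replicate block, which called 10 companion genes on 1 residual degree of freedom, and 3 of the 10 genes were called with no trend. With single samples left out, the counts of all genes, of the 10 genes and of companion genes ranged from 231 to 1032, 0 to 5 and 0 to 5 in TIM4+CD206+ KCs, from 444 to 3633, 0 to 2 and 0 to 2 in TIM4+CD206hi KCs, and from 17 to 1850, 1 to 8 and 3 to 10 with Id3 deletion, where a lone Clec4fCreId3f/f sample was assumed to vary like Id3f/f samples. The causes were not tested. Same-numbered samples deviated together only in TIM4+CD206+ KCs, and whether they were paired is not known. The block changed no call among the 10 genes in either tumour comparison, and with Id3 deletion it added Cd38 (0.26, adjusted p = 0.0135). Depth is not known.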
